A study of Drosophila melanogaster with 2 samples.

Results

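Of the 4599 peaks in the thresholded dm6 list, 1769 (38.5%, 95% interval 37.1 to 39.9) were single-gene promoter peaks. The summit of such a peak, its highest point, lay within 500 bp of an annotated transcription start site (TSS) of 1 protein-coding gene and of no other. They stood at 1581 genes. Another 1126 peaks (24.5%) had TSSs of more than 1 gene within 500 bp and are called multi-gene promoter peaks. The remaining 1704 peaks (37.1%) lay farther than 500 bp from every TSS of a protein-coding gene. TSS means that of a protein-coding gene throughout, unless said otherwise. All 3 classes were cut by position alone, with no use of signal. The peaks came from chromatin immunoprecipitation and sequencing (ChIP-seq) of whole Drosophila melanogaster embryos, aged 0 to 24 h and of both sexes pooled. The embryos belonged to 1 transgenic strain, CHES-1-like-GFP, in which the transcription factor CHES-1-like carries GFP (eGFP in the sample descriptions) at its C-terminus, and chromatin of 200 to 800 bp was precipitated with an antibody against GFP. The 2 libraries, biological replicates 2 and 3, form 1 group with no second condition. A control library entered the lists upstream and was not analysed here. The labels state neither the promoter that drives the fusion nor whether an untagged copy remains. All stages and cell types of the embryo were pooled, so fewer bound cells and less binding per cell cannot be told apart.

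CHES-1-like belongs to the forkhead family of DNA-binding proteins and is the fly counterpart of human FOXN3, also named checkpoint suppressor 1. Forkhead proteins bind the letters GTAAACA, and members of the FoxN group also bind a second site around GACGC. Promoters of Drosophila genes fall into broad kinds. Those of widely expressed genes often carry the DNA replication-related element (DRE), bound by DREF, or Motif 1, bound by M1BP. Those of developmentally regulated genes more often carry a TATA box, an initiator or GAGA repeats, the last bound by GAGA factor. Many fly genes lie head to head with a neighbour and share the DNA between both start sites, while others have a promoter region to themselves.

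The windows below show what such promoters looked like under the peaks. They were taken from release 6 of the genome (dm6, RefSeq sequence) around the summit, up to 100 bp on each side and ending where an annotated exon begins, and are written 5′ to 3′ along the gene. CG14100 (chr3L:19590525-19590721, minus strand) and Ugalt (chrX:2703853-2704003, minus strand), which encodes a UDP-galactose transporter, are shown because they held the 2 strongest member peaks. Capitals in these 2 mark GGGCGTA or its reverse complement, letters singled out after the windows had been read. CG11151 (chrX:13739453-13739653, plus strand) and CG31957 (chr2L:3872459-3872599, minus strand) show the DRE in capitals. Rnp4F (chrX:5322697-5322833, minus strand), which encodes an RNA-binding protein, and fwd (chr3L:319885-319998, minus strand), which encodes a phosphatidylinositol 4-kinase, show the core of Motif 1. These 4, and the 3 windows named next, were taken in order of signal among holders whose window, cut at exons, kept 100 bp or more and the motif, so stronger holders outside these terms are not shown. The Rnp4F window also holds the DRE letters, left in lower case. cbt (chr2L:480006-480206, minus strand), which encodes the zinc finger factor cabut, and CG9743 (chr3R:30203317-30203517, minus strand) show the GAGA repeat, and Acsf2 (chr2L:5342488-5342688, minus strand), named for an acyl-CoA synthetase, shows the forkhead site. A motif in capitals is a match of letters on either strand and not a site shown to be bound.
CG14100: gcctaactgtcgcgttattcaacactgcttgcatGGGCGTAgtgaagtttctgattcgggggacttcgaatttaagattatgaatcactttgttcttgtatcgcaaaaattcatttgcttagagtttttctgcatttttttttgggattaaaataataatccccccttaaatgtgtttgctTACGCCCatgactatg
Ugalt: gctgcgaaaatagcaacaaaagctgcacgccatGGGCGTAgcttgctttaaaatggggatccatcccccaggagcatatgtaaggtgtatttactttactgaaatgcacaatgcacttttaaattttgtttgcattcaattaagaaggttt
CG11151: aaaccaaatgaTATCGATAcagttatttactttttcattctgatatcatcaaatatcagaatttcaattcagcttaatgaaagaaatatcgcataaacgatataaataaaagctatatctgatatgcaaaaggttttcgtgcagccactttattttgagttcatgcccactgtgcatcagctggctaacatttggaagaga
CG31957: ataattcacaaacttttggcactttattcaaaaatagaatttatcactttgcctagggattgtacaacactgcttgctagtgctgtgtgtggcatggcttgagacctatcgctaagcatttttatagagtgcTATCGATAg
Rnp4F: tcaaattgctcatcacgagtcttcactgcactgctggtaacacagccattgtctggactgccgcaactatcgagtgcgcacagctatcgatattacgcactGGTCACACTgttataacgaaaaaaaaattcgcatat
fwd: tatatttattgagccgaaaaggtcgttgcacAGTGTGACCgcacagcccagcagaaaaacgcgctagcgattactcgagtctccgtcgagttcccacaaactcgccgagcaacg
cbt: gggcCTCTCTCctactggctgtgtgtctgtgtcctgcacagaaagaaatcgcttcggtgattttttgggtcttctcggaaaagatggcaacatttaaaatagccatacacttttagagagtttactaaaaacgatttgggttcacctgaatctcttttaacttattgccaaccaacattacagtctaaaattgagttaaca
CG9743: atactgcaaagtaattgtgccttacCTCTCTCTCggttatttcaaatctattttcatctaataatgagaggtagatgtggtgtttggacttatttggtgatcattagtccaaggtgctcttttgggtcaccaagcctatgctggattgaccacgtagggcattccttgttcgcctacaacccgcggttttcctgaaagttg
Acsf2: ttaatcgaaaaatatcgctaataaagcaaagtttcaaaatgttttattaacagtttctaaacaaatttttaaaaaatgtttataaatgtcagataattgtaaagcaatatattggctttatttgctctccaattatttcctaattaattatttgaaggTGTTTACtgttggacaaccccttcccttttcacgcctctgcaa

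The members ran from a signal of 84.3 to 1958, with a median of 127 and quartiles of 100.02 and 183. Signal is the authors' own value for a peak, on the scale of the list it stands in, and served here only to rank and describe peaks. The median was 142 at multi-gene promoter peaks and 123.3 at peaks away from any TSS. Of the members, 420 of 1769 (23.7%, 21.8 to 25.8) stood among the strongest 25% of the list (1150 peaks), against 344 of 1126 multi-gene promoter peaks (30.6%, 27.9 to 33.3). The odds ratio was 0.708 with an adjusted p of 0.000114 in a two-sided Fisher's exact test. Among the strongest 10% of the list the shares were 10.01% and 11.2%, with an adjusted p of 0.454. Against peaks away from a TSS, of which 386 of 1704 (22.7%) were in the strongest 25%, the odds ratio was 1.06 with an adjusted p of 0.469. With TSS windows of 250 bp this second comparison turned round, at 21.3% of members against 24.2% of peaks away, with an adjusted p of 0.0342. Peaks are not independent replicates, so each p-value describes this list, and the intervals cover counting error over peaks only.

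**Figure D1:**
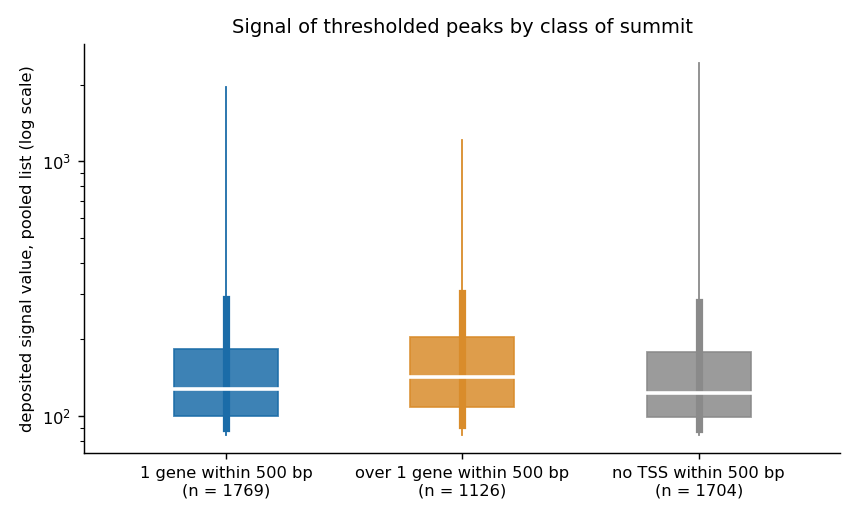
Signal values of the thresholded peaks, on a log axis, for members, multi-gene promoter peaks and peaks farther than 500 bp from any protein-coding TSS. White lines are medians (127, 142 and 123.3), boxes the quartiles, thick bars the 10th to 90th percentiles and thin lines the full range, and the 3 boxes overlap over most of their height.

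The strongest members belonged to genes of many kinds. CG14100 had a signal of 1098 in the list of replicate 2, 865 in that of replicate 3 and 1958 in the pooled list, and was second of all peaks in each. Ugalt had 1060 in replicate 2, 825 in replicate 3 and 1873 in the pooled list. At px (plexus), a gene of wing vein patterning, the peak had 980 in replicate 2, 675 in replicate 3 and 1656 in the pooled list. These 3 peaks ranked 2, 3 and 4 in the lists of both libraries. mRpL41, a protein of the large mitochondrial ribosomal subunit, ranked 7 in replicate 2 and 10 in replicate 3. larp, an RNA-binding protein, ranked 14 in replicate 2 and 8 in replicate 3. ph-p (polyhomeotic proximal), a subunit of the Polycomb repressive complex, ranked 9 in replicate 2 and 13 in replicate 3. The 20 strongest members also held PNPase, an RNA exonuclease of mitochondria, with a pooled signal of 1215, and GstE13, a glutathione S-transferase, with 1033. The casein kinase gish (gilgamesh) had 1008, the SoxC-type transcription factor Sox14 had 981 and eIF6, a factor of the large ribosomal subunit, had 972. The bZIP transcription factor Atf3 had 955, Rtnl1, which shapes the endoplasmic reticulum, had 869, the adenylate kinase Adk3 had 850 and Msp300, which ties nuclei to the cytoskeleton, had 734. CG1888, CG31145, MFS10, TRAM and amon completed the 20, with signals from 716 at amon, a prohormone convertase, to 1327 at CG1888.

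At the other end of the members, Dhit had a signal of 84.4, milt, a motor adaptor for mitochondria, had 84.3 and Psc, a Polycomb group protein, had 84.3. The pooled list of 30000 entries went on below these with single-gene promoter entries at Hip1, muc and spg, each with a signal of 84.2. The weakest members and the first entries under the limit thus had nearly the same signal. Of all 7532 pooled entries at single-gene promoters, 23.5% had passed into the thresholded list, against 46.3% of 2431 at multi-gene promoters and 8.50% of 20037 away from a TSS. At the edge of the distance rule, the summits at jar and Pi3K92E lay 500 bp from the TSS and that at CG31807 at -498 bp, where negative distances are upstream. Just outside lay peaks near CG42671 at 501 bp, CG17896 at 502 bp and FucTC at 503 bp. The 56 members 451 to 500 bp from a TSS had a median signal of 132, and the 49 peaks 501 to 550 bp away had 131.

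Both libraries found most members. A summit within 100 bp stood in the list of replicate 2 for 1718 members (97.1%) and in that of replicate 3 for 1706 (96.4%), and 1656 (93.6%, 92.4 to 94.7) were found in both. 1 member was found in neither. These replicate lists hold 30000 entries each, peaks and background together, so a stricter measure was also taken. It is a rank cut by signal in lists from which the thresholded list was itself derived, so it does not measure reproducibility independently. The median signal was higher at multi-gene promoter peaks, and the part of signal in the differences below was not tested. Of the members, 1215 of 1769 (68.7%, 66.5 to 70.8) had a match among the 4599 best peaks of each replicate, against 847 of 1126 multi-gene promoter peaks (75.2%, 72.6 to 77.7; odds ratio 0.722, adjusted p = 0.0003, two-sided Fisher's exact test). With summits matched within 50 bp the shares were 57.3% and 61.2% and the adjusted p was 0.0732. Against peaks away from a TSS, at 66.3%, the odds ratio was 1.12 with an adjusted p of 0.128, and with matching within 200 bp it was 1.21 with an adjusted p of 0.012. Across the 1656 members found in both lists the Spearman correlation of the replicate ranks was 0.682. It is given as a description of peaks that share 2 libraries and were selected through both.

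**Figure D2:**
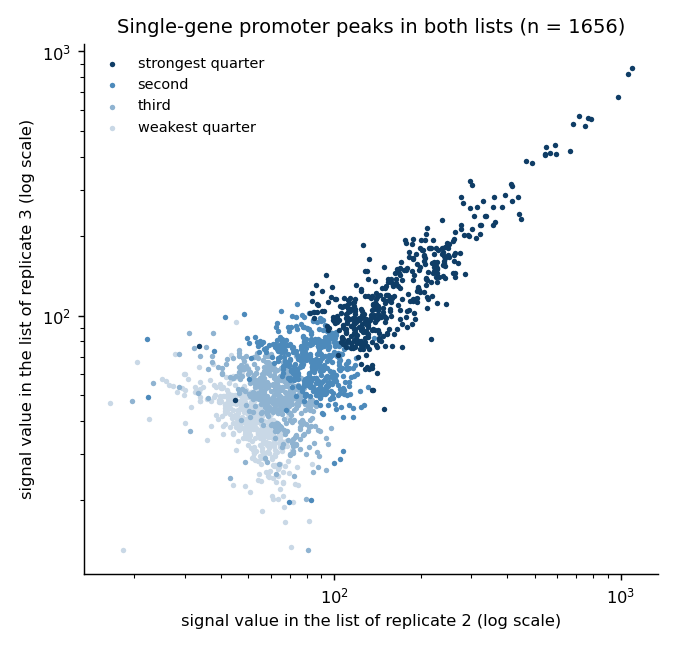
Signal of the 1656 members found in both replicate lists, replicate 2 across and replicate 3 up, both axes logarithmic and each on the scale of its own list. Shades mark successive 25% steps of the thresholded list by pooled signal, which draws on both libraries. The strongest members lie along a narrow band and the weakest 25% form a cloud. Among peaks of like pooled signal, a peak high in 1 library tends to be low in the other, so these shapes do not measure reproducibility.

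Summits sat mostly upstream of the start site. Of 1769 members, 1203 (68.0%, 65.8 to 70.2) had the summit upstream of the nearest TSS, 560 (31.7%) downstream and 6 on the TSS base. The median distance was -46 bp, with quartiles of -156 and 22 bp. The summit was within 100 bp of the TSS for 925 members (52.3%), and 111 (6.27%) lay more than 400 bp away. At multi-gene promoter peaks 76.3% of summits were within 100 bp of a TSS, a share that more TSSs in reach raise.

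Strong peaks lay farther upstream than weak ones. In the strongest 25% of the list the median distance of members was -121 bp and 350 of 420 (83.3%, 79.4 to 86.8) were upstream. In the next 25% the median was -46 bp, with 316 of 437 (72.3%, 67.9 to 76.5) upstream. The 25% after that had a median of -31.5 bp, with 275 of 440 (62.5%, 57.8 to 67.0) upstream. The weakest 25% had a median of -15 bp, with 262 of 472 (55.5%, 50.9 to 60.1) upstream. The intervals of the strongest and the weakest 25% did not overlap. This is a description over peaks, with no test.

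**Figure D3:**
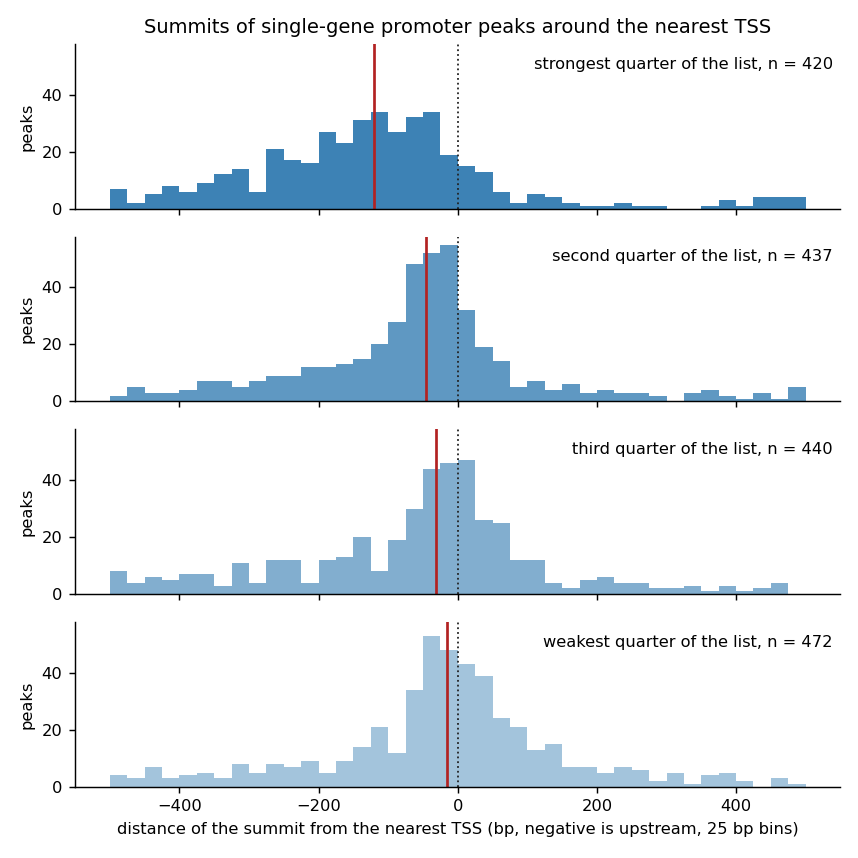
Number of member summits by distance from the nearest TSS in bins of 25 bp, negative values upstream, in 4 panels from the strongest to the weakest 25% of the list. Red lines are medians (-121, -46, -31.5 and -15 bp) and dotted lines the TSS, and the strongest 25% spread farther upstream than the others.

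By annotation, 752 member summits (42.5%) lay between genes, 531 (30.0%) in a 5′ UTR, 424 (24.0%) in an intron, 42 (2.37%) in coding sequence and 20 (1.13%) in a 3′ UTR. The nearest TSS was the most upstream of its gene for 1228 members (69.4%, 67.2 to 71.6). At the 966 members of genes with more than 1 TSS it was the most upstream for 425 (44.0%), against 3699 of all 9361 TSSs of such genes (39.5%), so inner TSSs are the larger share in the annotation too. Member genes were longer and had more start sites than the genome at large. Their median length was 4945 bp, against 2164 bp over all protein-coding genes, and 807 of 1581 (51.0%, 48.5 to 53.5) had more than 1 TSS, against 3699 of 13968 (26.5%, 25.8 to 27.2). A gene with more TSSs offers more places for a member, and the part of this in the difference was not tested. Of the member genes, 283 (17.9%) also held a thresholded summit more than 500 bp from any TSS within the gene, against 769 (5.51%) of all protein-coding genes. Longer genes offer more room for such a summit, and the part of gene length in this difference was not tested.

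A promoter with a single gene within 500 bp can still have a neighbour close by. The median distance from a member summit to the TSS of the next gene was 2465 bp. For 313 members (17.7%) that TSS lay within 1000 bp, and in 255 of these (81.5%, 76.7 to 85.6) the next gene pointed away in a divergent pair. At multi-gene promoter peaks the TSSs lay on both strands in 95.2%. The words single and away count protein-coding genes only: 121 members (6.84%) also had the TSS of a non-coding gene or pseudogene within 500 bp. On the chromosome arms, between 10.6% of genes on 2L and 12.4% on 3L had a member, with 11.2% on the small chromosome 4, where 9 of 80 genes had 1.

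Most genes had 1 member, 159 had 2 or more and 23 had 3 or more, and the 347 peaks of the 159 genes share a gene. Rtnl1 had 5, at alternative start sites of the gene, with pooled signals of 869, 418, 198, 143 and 142. All 5 summits lay upstream of their TSS, at -256, -207, -98, -307 and -191 bp. larp, Ptpmeg2, ush and ps had 4 each, which were not all separate sites. At ush the peaks at -378 and -35 bp overlapped and had the same nearest TSS, and those at 119 and 56 bp overlapped. The larp peaks at -134 and -343 bp also overlapped and had the same nearest TSS. At Ptpmeg2, a tyrosine phosphatase, 3 of the 4 had signals of 456, 365 and 342 and lay at -208, -192 and -185 bp, nearly the same distance from 3 different TSSs. At ush (u-shaped), a Friend-of-GATA cofactor, signals ran from 89.3 to 174, and at ps (pasilla), an RNA-binding splicing regulator, from 86.3 to 98.7. The cAMP phosphodiesterase gene dnc (dunce) had 3, at -313, -297 and -326 bp with signals of 576, 403 and 175. Several members of 1 gene thus stood at a like distance from separate start sites at Ptpmeg2, for 3 of its 4, and at dnc. This did not hold at each gene named. The distances were -483, 394 and 50 bp at ph-p, which had 3 members, and 97, -202, -109 and 40 bp at ps. At larp, where not all the start sites were separate, the distances varied from -343 to -36 bp.

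CHES-1-like itself had 3 member peaks on the X chromosome. The strongest had its summit at position 7709119 (dm6), 266 bp downstream of the TSS in the 5′ UTR, with a signal of 449 in replicate 2, 232 in replicate 3 and 682 in the pooled list, where it ranked 63. The second lay at 7697086, at -382 bp from an inner TSS, with 339 in replicate 2, 238 in replicate 3 and 587 in the pooled list. Another lay at 7709320, 65 bp downstream of the TSS, with 217 in replicate 2, 81.7 in replicate 3 and 348 in the pooled list, ranking 238 in replicate 2 and 1182 in replicate 3. It and the strongest lie closer together than the longest sonicated fragments. The line carries a tagged CHES-1-like insertion, and its part in these 3 peaks was not tested.

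The DNA under the members differed in some motifs from that under the other classes. The 201 bp centred on each summit were searched for 12 motifs on both strands. Each motif was compared with both other classes by two-sided Fisher's exact tests, with p-values adjusted over the 24 tests. Member summits lay at a median of 94 bp from the nearest TSS and multi-gene ones at 54 bp. The windows thus cover start sites to unlike degrees, and those of multi-gene peaks can hold start sites of more than 1 gene. The part of this in the differences below was not tested. The largest odds ratio against multi-gene promoter peaks was that of the GAGA repeat (GAGAGAG), held by 103 members (5.82%, 4.78 to 7.02) and by 17 multi-gene promoter peaks (1.51%, 0.882 to 2.41), with an odds ratio of 4.03 and an adjusted exact p of 1.84e-08. At peaks away from a TSS the share was 5.22%, with an odds ratio of 1.12 and an adjusted exact p of 0.5. Among all promoters, taken as 100 bp on each side of the most upstream TSS, 3.68% held it. These windows were centred on the TSS and not on a summit. Of members at the most upstream TSS, an alternative chosen after the data were seen, 4.15% held it. Against multi-gene peaks their odds ratio was 2.83, with an adjusted exact p of 0.000334.

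The DRE (TATCGATA) was held by 147 members (8.31%, 7.07 to 9.69), 154 multi-gene promoter peaks (13.7%, 11.7 to 15.8) and 10 peaks away from a TSS (0.587%). Members were lower than multi-gene peaks, with an odds ratio of 0.572 and an adjusted exact p of 1.88e-05, and higher than peaks away, with an odds ratio of 15.4 and an adjusted exact p of 4.45e-31. With members limited to those at the most upstream TSS, an alternative chosen after the data were seen, the call against multi-gene peaks was lost (odds ratio 0.760, adjusted exact p = 0.0626). The core of Motif 1 (GGTCACACT) was held by 102 members (5.77%), 91 multi-gene peaks (8.08%) and 3 peaks away (0.176%). It too was lower at members than at multi-gene peaks (odds ratio 0.696, adjusted exact p = 0.0326) and higher than at peaks away (odds ratio 34.7, adjusted exact p = 1.45e-25). The first of these calls was lost with motif windows of 50 bp, with TSS windows of 250 bp, in the stronger 50% of the list and at the most upstream TSS, at adjusted exact p-values from 0.0592 to 0.285. The second rests on 3 peaks away, and its odds ratio was 21.9 without replicate 2, 24.6 without replicate 3 and 73.1 with TSS windows of 1000 bp. The E-box CAGCTG lay between the other classes, at 12.8% of members, 19.3% of multi-gene peaks and 8.22% of peaks away, and both differences passed the test (adjusted exact p = 1.02e-05 and 3.21e-05). The second was lost in the stronger 50% of the list (odds ratio 1.36, adjusted exact p = 0.14). Of all promoters, 7.83% held the DRE, 5.28% the Motif 1 core and 13.8% the E-box. Those windows were centred on the most upstream TSS and the windows of members on the summit, so these shares are not of like windows. The DRE and Motif 1 are promoter elements, and the classes were cut by distance to a TSS. Their comparisons with peaks away therefore largely restate the rule. The E-box was chosen as an element of core promoters, so this limit applies to its comparison with peaks away too.

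The TATA box letters (TATAAA) were lower at members, at 21.4%, than in both other classes, at 29.5% of multi-gene peaks (odds ratio 0.652) and 26.9% of peaks away (odds ratio 0.742), with adjusted exact p-values of 4.61e-06 and 0.000455. With motif windows of 250 bp on each side the first call was lost (odds ratio 0.854, adjusted exact p = 0.0731) and the second turned round (odds ratio 1.02, adjusted exact p = 0.793). The initiator letters TCAGT were in 34.6% of members and 30.2% of multi-gene peaks (adjusted exact p = 0.0298), a call that neither replicate alone gave (adjusted exact p = 0.206 without replicate 3 and 0.129 without replicate 2). The median GC content of the windows was 41.3% at members and 37.8% in each of the other classes, and its part in these differences was not tested.

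For the sites known for forkhead and FoxN proteins, the differences between members and multi-gene peaks did not pass the test. GTAAACA was held by 153 members (8.65%), 9.95% of multi-gene peaks (adjusted exact p = 0.299) and 8.33% of peaks away (adjusted exact p = 0.761). Its letters read backwards without complementing, ACAAATG, a control of equal composition, were in 5.60% of members, with adjusted exact p-values of 0.299 and 0.0656 against multi-gene peaks and peaks away. GACGC was held by 337 members (19.1%), against 16.3% of multi-gene peaks (adjusted exact p = 0.106) and 13.0% of peaks away (odds ratio 1.58, adjusted exact p = 4.61e-06). Its reversed control CGCAG moved the same way, at 30.5% of members, 26.2% of multi-gene peaks (adjusted exact p = 0.0284) and 23.2% of peaks away (odds ratio 1.46, adjusted exact p = 4.61e-06). The call of CGCAG against multi-gene peaks was lost without replicate 3 (adjusted exact p = 0.18). GACGC and letters of the same composition thus differed in the same direction from peaks away. Motif 6 (GTATNTTT) and the Zelda site (CAGGTAG) were not called against either class, at 10.3% and 0.791% of members, with adjusted exact p-values from 0.172 to 0.517.

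**Figure D4:**
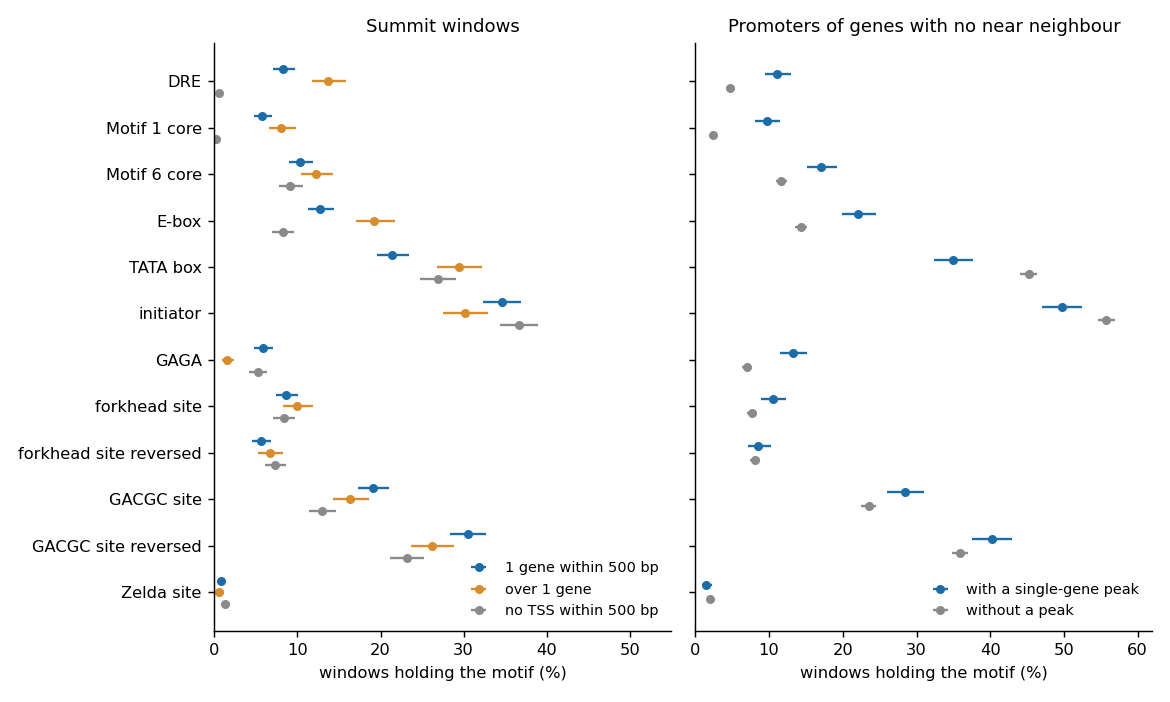
Share of windows that hold each of 12 motifs, with 95% intervals, at summits of members, multi-gene promoter peaks and peaks away from a TSS (left) and in promoters of genes with no near neighbour, with and without a single-gene promoter peak (right). GAGA is at 5.82% of members and 1.51% of multi-gene peaks, the DRE at 8.31% and 13.7%, and on the right the Motif 1 core is at 9.70% and 2.41%.

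Members holding the DRE, the Motif 1 core or GAGA were set side by side, with no test between them. Any of these 3 motifs was in 338 members (19.1%). Of these, 6 had the DRE with the Motif 1 core, 5 the DRE with GAGA and 3 the Motif 1 core with GAGA. Genes of GAGA members had a median length of 11594 bp, against 3416 bp for DRE members and 4050 bp for Motif 1 members. The nearest TSS was an inner one for 50.5% of GAGA members (40.5 to 60.5), 10.2% of DRE members (5.82 to 16.3) and 18.6% of Motif 1 members (11.6 to 27.6). Another thresholded summit away from a TSS was found in the gene for 39.4% of genes with a GAGA member and 8.90% of those with a DRE member. The part of gene length in this was not tested. The summit lay at a median of -109 bp in GAGA members, -35 bp in DRE members and -26.5 bp in Motif 1 members. These groups were made by a motif within 100 bp of the summit, which ties summit position to motif position. The motif lay at a median of -79 bp from the TSS for GAGA, -38.5 bp for the DRE and -5.5 bp for Motif 1. The part of this choice in the summit distances was not tested. Only 8 of 102 Motif 1 members (7.84%, 3.45 to 14.9) stood in the strongest 25% of the list, against 31 of 147 DRE members (21.1%) and 28 of 103 GAGA members (27.2%). The Motif 1 core was in 1.90% of members of the strongest 25% and in 6.86%, 7.50% and 6.57% of those in the successive 25% steps below. Summits of members in the strongest 25% lay at a median of 141.5 bp from the nearest TSS. In the steps below the medians were 75, 78 and 71.5 bp. The windows searched thus missed the TSS in most members of the strongest 25% and held it in most of those below. The part of this in the Motif 1 shares by strength was not tested. The strongest DRE members were eIF6, Alg3 and CG11151, with signals of 972, 623 and 509. The strongest Motif 1 members, Ube4B, CG3808 and wdb, had 316, 248 and 231. The strongest GAGA members, px, cbt and mrj, had 1656, 629 and 499.8, and were named after their values had been seen.

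A second comparison set promoters with a member against promoters with none, using genes that had no TSS of another gene within 1000 bp. Windows from 250 bp before to 50 bp after the TSS were searched, around the TSS nearest the summit at 1299 such genes with a member and around the most upstream TSS at 6883 with no thresholded summit within 500 bp. Of the 12 motifs, 10 differed by two-sided Fisher's exact tests adjusted over 12. The Motif 1 core was in 9.70% of promoters with a member (8.14 to 11.4) and 2.41% of those without (2.06 to 2.80), with an odds ratio of 4.35 and an adjusted exact p of 1.23e-28. The DRE was in 11.1% and 4.69% (odds ratio 2.53, adjusted exact p = 5e-16) and GAGA in 13.2% and 6.97% (odds ratio 2.04, adjusted exact p = 3.02e-12). The E-box was in 22.1% and 14.3%, and Motif 6 in 17.1% and 11.6%. The TATA letters were lower in promoters with a member, at 34.9% against 45.2% (odds ratio 0.651, adjusted exact p = 1.83e-11), as were the initiator letters, at 49.7% against 55.8% (odds ratio 0.785, adjusted exact p = 0.000116). Promoters with a member thus held the DRE, the Motif 1 core and GAGA more often than those without. With the most upstream TSS used for every gene, the GAGA shares were 10.1% and 6.97% (odds ratio 1.49, adjusted exact p = 0.000517). The odds ratios of the DRE and the Motif 1 core were then 2.84 and 4.70.

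The forkhead site GTAAACA was in 10.5% of these promoters with a member and 7.67% of those without (odds ratio 1.41, adjusted exact p = 0.00141), while its reversed control was in 8.55% and 8.09% (adjusted exact p = 0.581). GACGC was in 28.5% and 23.5% (odds ratio 1.29, adjusted exact p = 0.000275), and its reversed control CGCAG also differed, at 40.3% and 35.9% (odds ratio 1.20, adjusted exact p = 0.00342). The calls of GACGC and CGCAG were lost when the most upstream TSS was used for every gene (adjusted exact p = 0.0727 for both). Over all 13968 genes 9.23% of promoters held GTAAACA and 22.3% GACGC. The median GC content was 39.9% with a member and 39.2% without. Genes with a member were longer (median 5236 bp, against 1959 bp) and had more than 1 TSS in 51.3%, against 20.1%; the part of these in the motif shares was not tested.

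The number of calls depended on which promoters served as unbound. When the promoters without a member were limited to the 2157 that had an entry of the pooled list below the limit within 500 bp, an alternative chosen after the data were seen, 2 of 12 motifs still differed. These were the Motif 1 core, at 9.70% and 5.93% (odds ratio 1.70, adjusted exact p = 0.000308), and the TATA letters, at 34.9% and 42.1% (odds ratio 0.739, adjusted exact p = 0.000308). The DRE was at 11.1% and 9.46% (adjusted exact p = 0.222), GAGA at 13.2% and 11.3% (adjusted exact p = 0.168) and GTAAACA at 10.5% and 9.36% (adjusted exact p = 0.384). CGCAG turned round, at 40.3% and 40.7% (odds ratio 0.984, adjusted exact p = 0.83).

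Members were counted over 21 gene lists, each against the background over all protein-coding genes, of which 11.3% had a single-gene promoter peak and 14.6% had only a multi-gene one. Of the 88 cytosolic ribosomal protein genes, the subunits of the ribosome of the cytoplasm, 35 (39.8%, 29.5 to 50.8) had a member and 33 only a multi-gene peak. Their median signal was 190, against 130 over all member genes. The strongest were RpL23A (554), RpL30 (400.05) and RpS10b (361), and 11 of the 35 held the DRE. Among the 33 ribosomal protein genes with no other TSS within 1000 bp, 20 (60.6%) had a member, against 14.4% of all such genes. The mitochondrial ribosomal proteins were also often at multi-gene peaks and seldom at members. Of 73 genes, 2 (2.74%, 0.334 to 9.55) had a member, mRpL41 with a signal of 1346 and mRpL4 with 193, while 37 (50.7%) had only a multi-gene peak. Of the 13 with no other TSS within 1000 bp, 0 had a member, which allows a share of up to 23.1% (3 counts of the total).

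Other genes of general cell upkeep varied. The respiratory chain list had 9 of 87 (10.3%, 4.84 to 18.7), near the background, led by ND-B17 (159), RFeSP (127) and ND-20 (121), all electron transport subunits. The proteasome list had 8 of 32 (25%, 11.5 to 43.4), with signals from 86.1 at Rpn1 to 121 at Rpn10, all below the median of the members. Of 32 aminoacyl tRNA synthetases only CysRS had a member (99.6), while 11 (34.4%) had a multi-gene peak. The heat shock chaperones had 5 of 21 (23.8%, 8.22 to 47.2). These were Hsp83 (404), Hsp27 (224), Hsp26 (212), Hsp110 (185) and Hsc70-4 (116).

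Among regulators of chromatin, the Polycomb and trithorax list had 11 of 30 (36.7%, 19.9 to 56.1). Its strongest were ph-p (1246), Trl (361), which encodes GAGA factor, and kis (193), a chromatin remodeller. Pc, Scm, Su(z)2, jing, ph-d, osa, esc and Psc made up the rest. The list of insulator and pioneer factors had 6 of 19 (31.6%, 12.6 to 56.6) and shares Trl with it; lola (281), CTCF (107), pita (100.3), BEAF-32 (94.0) and su(Hw) (88.4) were the others. At CTCF no summit was matched in the list of replicate 3.

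Of the 5 signalling lists, 4 had intervals above the background of 11.3%, on small numbers, and that of Hippo included it. The JAK/STAT list had 6 of 14 (42.9%, 17.7 to 71.1): the transcription factor Stat92E (140.4), its inhibitors Su(var)2-10 (162), Ptp61F (133) and Socs36E (129), with Socs16D (125) and ken (88.2). The Wnt list had 9 of 27 (33.3%, 16.5 to 53.96). Its kinases gish (1008), sgg (497) and CkIalpha (173) led, followed by nkd, arr, Apc, Wnt6, fz3 and Wnt5, with signals from 93.1 to 154. The insulin and TOR list had 9 of 28 (32.1%, 15.9 to 52.4). Its members included the receptor InR (229), its substrate chico (95.6), the kinase subunits Pi3K21B (259) and Pi3K92E (199) and the transcription factor foxo (88.2), with Thor (205), Pdk1 (122) and Lk6 (125). The Notch list had 6 of 19 (31.6%, 12.6 to 56.6), led by the corepressor gro (550.5), and held the receptor N itself with a signal of 95.6. The Hippo list had 4 of 17 (23.5%, 6.81 to 49.9), the kinase hpo (328), Mer (208), kibra (200.5) and ex (121).

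The cell cycle list had 13 of 44 (29.5%, 16.8 to 45.2). The S-phase regulators Dp (393) and E2f1 (198), which form a heterodimer, and BubR1 (205), of the spindle checkpoint, led it. polo, the mitotic kinase, had 133, CycB3 115.03 and CycB 92.8. At Cdk2 the summit ranked 1957 in replicate 2 and 19508 in replicate 3, far lower in 1 library than in the other.

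For the Hox, cardiac, neural and muscle lists the interval included the background of 11.3%. Hox and segmentation genes had 3 of 31 (9.68%, 2.04 to 25.8), bcd (145), hry (134) and cad (87.7). The cardiac and mesoderm regulators had 3 of 23 (13.0%, 2.78 to 33.6), CHES-1-like itself, ush (174) and Mef2 (151). The neural fate list had 2 of 25 (8%, 0.984 to 26.0), elav (382) and scrt (104), and the muscle structure list had 4 of 23 (17.4%, 4.95 to 38.8), Msp300 (734), sls (322), Zasp52 (93.0) and TpnC47D (88.0). The cytochrome P450 list had 3 of 83 (3.61%, 0.752 to 10.2), each with a signal of at most 105. No member was found at 121 cuticle protein genes, which by the same rule allows a share of up to 2.48%, nor at 180 chemosensory receptor genes, which allows up to 1.67%.

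**Figure D5:**
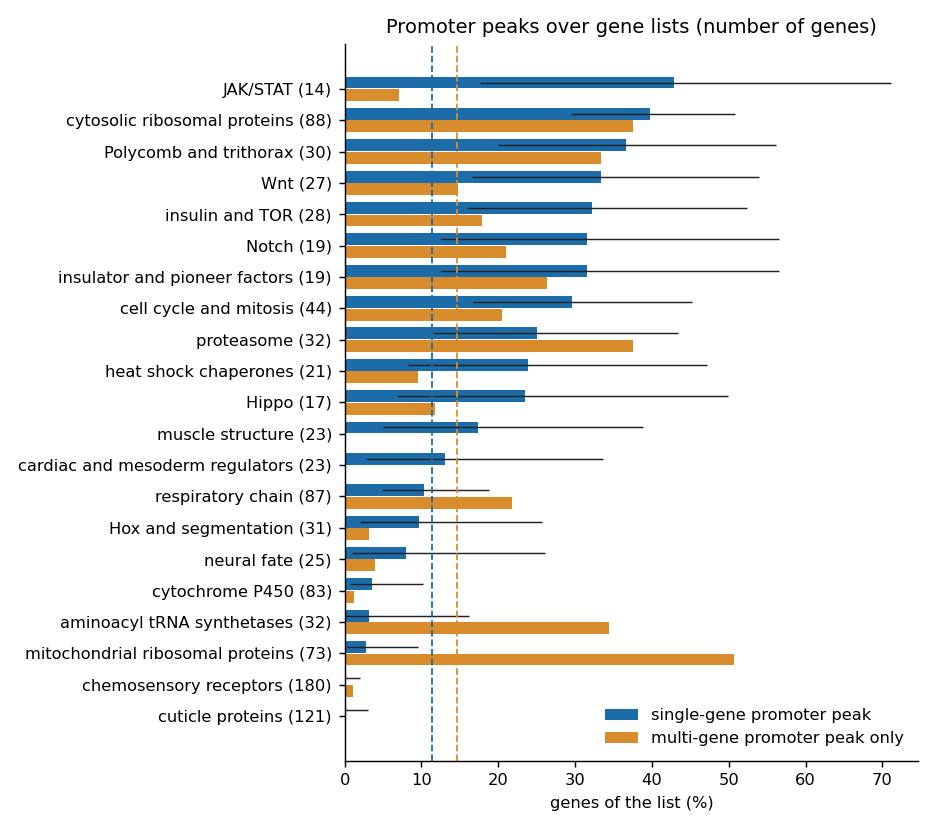
Percent of the genes of each of 21 lists with a single-gene promoter peak (blue, with 95% intervals) or with only a multi-gene one (orange); numbers of genes stand in parentheses and dashed lines mark all protein-coding genes (11.3% and 14.6%). Cytosolic ribosomal proteins reach 39.8% in blue, mitochondrial ribosomal proteins 2.74% in blue and 50.7% in orange, and cuticle proteins 0.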

How the data were processed

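ChIP-seq of CHES-1-like-eGFP was measured in 2 libraries, biological replicates 2 and 3 of 1 group. Each deposited dm6 list gives 1 line per summit with a signal value, a −log10 of the q-value and a summit position. Per the manifests deposited with the files, the authors derived each replicate list from 1 library and a control, the pooled list from both libraries, and the thresholded list from all 3 by the irreproducible discovery rate procedure. No label or header given here names the aligner, the caller or the limit used. Depth is unknown, since no file holds read counts. The deposited −log10 q-value sat at its highest level for 1595 members and was not used further.

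Start sites came from Ensembl BDGP6 release 115 (13968 protein-coding genes, 19630 TSSs) and sequence from release 6 of the genome. On arm 3R the last thresholded peak ended within the arm. Replicate summits were matched within 100 bp. Members, gene lists, motifs and tests were chosen with earlier results of these data known. Tests were two-sided Fisher's exact tests over peaks or genes at a threshold of 0.05, with Benjamini-Hochberg adjustment within each family (2, 2, 24 and 12 tests), and intervals are exact Clopper-Pearson at 95%. The named genes are the 20 strongest members, up to 8 genes with 3 or more members, up to 3 per gene list, CHES-1-like, those nearest the 500 bp edge and the 3 strongest holders of selected motifs. Other list members are named to complete a count, after their values had been seen, and a counted list member is not reported here by name. Sequences are those of the strongest holders off the second chromosome's right arm whose summit lay outside annotated exons and whose window, cut at exons, kept 100 bp or more and the letters shown. The classification, matching and tests were tested on simulated data. Alternatives covered the TSS window, biotype, matching, motif window, either replicate alone and repeat lines of a region. Lists on dm3 were not used. Tests ran in scipy 1.17.1 and statsmodels 0.14.6, tables in pandas 2.3.3 with numpy 2.4.6, and figures in matplotlib 3.10.9, all under Python 3.11.15.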

Additional observations from a re-analysis of the deposited data

How the results depend on the processing

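Of 240 values recomputed under alternatives, 200 kept their direction and their side of the threshold or their size. No paired analysis was possible because the 2 libraries form 1 group. Leaving out either replicate, with as many best peaks of the other alone, gave 1753 to 1819 members, 11.2 to 11.5% of genes, odds ratios of 0.655 to 0.761 and 1.07 to 1.13 for the strongest 25%, 6 motifs that differed from multi-gene peaks, 6 to 7 from peaks away and 10 between promoters with and without a member. The best-of-both measure needs both replicates and was not run this way. The odds ratio against peaks away for the strongest 25% reversed with a TSS window of 250 bp (0.847). The strongest 10% in place of 25% gave 0.882 against multi-gene peaks, and the best-of-both odds ratios were 0.850 with matching at 50 bp and 1.21 at 200 bp. The strongest 50% of the list held 857 members by construction, with 4 motifs different from multi-gene peaks, in place of 7, and members at the most upstream TSS, an alternative added after the data were seen, also gave 4. The share of genes was 11.98% and 10.7% with TSS windows of 250 and 1000 bp. With motif windows of 250 bp, CGCAG against multi-gene peaks (0.936) and the TATA letters against peaks away (1.02) reversed. Limiting unbound promoters to those with a sub-threshold entry left 2 of 12 motifs, with CGCAG reversed (0.984). GAGA stayed called against multi-gene peaks under each alternative run, with odds ratios from 2.83 to 5.86. Except where an alternative's construction shows it, the cause was not tested. The unknown depth limits what a missing match in 1 library shows.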

Other observations

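The letters GGGCGTA, singled out after the strongest windows had been read and therefore given with no test, were in 7 of the 60 strongest members (11.7%, 4.82 to 22.6) and in 14 of the other 1709 (0.819%). They were in 1.69% of multi-gene promoter peaks, 1.23% of peaks away from a TSS and 0.773% of all promoters, taken as 100 bp on each side of the most upstream TSS. The 60 strongest members include CG14100 and Ugalt, in whose windows the letters were read. The other classes were taken whole, so their strongest peaks were not set beside these 60.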
